A study of Drosophila melanogaster with 2 samples.

Results

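The sex determination genes of Drosophila melanogaster are described here as a set of 8 among 13945 protein-coding genes: sisA, dpn, Sxl, tra, tra2, ix, dsx and fru. They were chosen by their role and found by symbol in the annotation, and the rule uses no measured values. Earlier results of these data were known when they were chosen. Binding of CG17829, also named Hinfp and related to the human histone H4 transcription factor, was mapped by chromatin immunoprecipitation with sequencing (ChIP-seq). The antibody was directed against GFP, and the embryos came from 1 transgenic line that stably carries CG17829 with GFP at its C terminus. There was 1 group, whole embryos of mixed sex aged 0 to 24 hours, with biological replicates numbered 2 and 4 from separate biosamples, and no second genotype, age or treatment. Male and female embryos, tissues and stages cannot be told apart in such a sample, and whether the fusion protein binds as the native protein does was not tested.

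Each deposited list gives peaks, that is stretches of DNA recovered above background, with the summit as the highest point. Replicate 2, replicate 4 and the pooled data each had 30000 peaks. A list filtered by the irreproducible discovery rate (IDR), which scores how well peak ranks repeat, had 7915 peaks, and these were the 7915 strongest of the pooled list. The signal value is the authors' own number on a scale that is not defined, so it only orders peaks within a list, where rank 1 is the strongest. A summit was counted for a gene when it lay in the gene body or within 5 kb of it, and as a promoter summit when it lay within 250 bp of a transcription start site (TSS) of that gene. By this rule 18 of the 7915 IDR summits belonged to the 8 genes.

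In flies, sex is set in the early embryo by the number of X chromosomes. X-linked activators such as SisA switch on the establishment promoter of Sxl in XX embryos, and autosomal repressors such as Deadpan (dpn) counteract them. Sxl protein then keeps itself on by splicing the transcripts of the maintenance promoter, and it directs female splicing of tra. Tra, with Tra2, sets the splicing of dsx and of the distal-promoter transcripts of fru, which encode transcription factors for the body and for the nervous system. The protein encoded by ix is a partner of the female Dsx protein.

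The DNA under the summits that carry the account follows, read from the RefSeq sequence of dm6 on the minus strand, which is the coding strand of all 8 genes. The stretches shown in this place were ended at annotated exons. Capitals mark matches to the motifs spelled out further on. At Sxl, the summit at the maintenance promoter and the strongest IDR summit of all 8 genes are shown.
Sxl maintenance promoter, chrX:7098054-7098173: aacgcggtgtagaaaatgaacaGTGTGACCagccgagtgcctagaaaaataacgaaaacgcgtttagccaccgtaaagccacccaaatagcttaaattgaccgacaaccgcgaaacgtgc
Sxl intron, chrX:7096551-7096751: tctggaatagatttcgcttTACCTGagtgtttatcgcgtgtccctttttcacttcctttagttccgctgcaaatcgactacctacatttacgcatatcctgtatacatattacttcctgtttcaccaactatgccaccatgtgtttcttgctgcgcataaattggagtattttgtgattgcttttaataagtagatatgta

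The whole gap between tra and its neighbour spd-2 is shown because the tra promoter summit lies in it. The stronger of the dsx summits and the fru promoter summit are shown beside it, both inside introns and both without any of the motifs searched.
tra upstream gap, chr3L:16591051-16591206: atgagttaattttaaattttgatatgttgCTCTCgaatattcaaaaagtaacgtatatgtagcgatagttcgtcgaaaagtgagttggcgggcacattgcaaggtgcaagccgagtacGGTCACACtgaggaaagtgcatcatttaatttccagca
dsx intron, chr3R:7963006-7963206: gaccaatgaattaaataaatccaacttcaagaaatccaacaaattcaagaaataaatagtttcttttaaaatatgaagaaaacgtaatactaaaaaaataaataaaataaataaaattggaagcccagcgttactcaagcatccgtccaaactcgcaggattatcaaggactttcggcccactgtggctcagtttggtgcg
fru intron, chr3R:18438805-18439005: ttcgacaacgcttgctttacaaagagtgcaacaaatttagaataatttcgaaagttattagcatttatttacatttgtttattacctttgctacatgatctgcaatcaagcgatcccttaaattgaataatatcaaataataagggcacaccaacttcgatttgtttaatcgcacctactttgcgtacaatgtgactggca

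The region upstream of sisA is shown at both of its IDR summits, because these hold the only match to the HINFP core and a match to the DNA replication-related element (DRE).
sisA upstream, within Gapvd1, chrX:11326297-11326497: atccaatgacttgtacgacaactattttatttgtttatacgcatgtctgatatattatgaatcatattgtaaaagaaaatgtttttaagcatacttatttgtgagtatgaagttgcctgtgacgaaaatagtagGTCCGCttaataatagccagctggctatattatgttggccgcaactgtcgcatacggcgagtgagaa
sisA upstream, at the Gapvd1 start, chrX:11325309-11325384: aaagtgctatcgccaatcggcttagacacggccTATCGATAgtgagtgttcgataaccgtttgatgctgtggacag

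CG17829 was found at the start of Sxl, at the start of tra and of dpn, and at the most proximal of the fru starts, while sisA, tra2, ix and dsx had no IDR summit at a start of their own. A promoter summit was thus present in 4 of the 8 genes. Over all protein-coding genes the share was 31.7% (4416 of 13945), and no test of the difference was made. The share was not adjusted for the number of TSSs per gene. A gene with more TSSs, such as fru with 7 or Sxl with 4, has more chances to count. With a margin of 5 kb, 7 of the 8 genes had an IDR summit, tra2 being the exception, against 64.9% of all protein-coding genes. Inside the gene body, 3 of the 8 genes (Sxl, dsx and fru) had one, against 16.7%. Sxl, dsx and fru were also the longest of the set, at 23.504, 43.086 and 131.314 kb, while the median length of the other 13937 protein-coding genes was 2166 bp. Per length, the 8 gene bodies held 7 summits in 206.096 kb, or 0.0340 summits per kb, against 0.0445 per kb in the other gene bodies. Of this length 131.314 kb is fru, so fru weighs most in the density. Singly, Sxl had 0.128 per kb, dsx 0.0464 and fru 0.0152, and the other genes of the set had no IDR summit in the body.

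Of the 18 summits, 5 lay at a start of the gene itself and 4 at the start of a neighbouring gene. Another 5 lay inside the gene and 4 outside it, all more than 250 bp from any annotated TSS. Those lay 316 to 1957 bp from the nearest TSS. In all, 9 of 18 (50%, exact 95% binomial interval 26.0 to 74.0%, counting error only) were within 250 bp of some annotated TSS, and in the whole IDR list 48.1% were. The interval takes the summits as independent and is too narrow, since some of them are close neighbours. Summits often came in pairs: 8 of the 18 had another IDR summit within 250 bp, against 9.99% of the whole list. Joining such pairs left 14 places. Signal values were middling, with a median of 234.639 at the 18 summits against 241.301 over the IDR list, and ranks ran from 1266 to 7222 with a median of 4104.5.

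**Figure D1:**
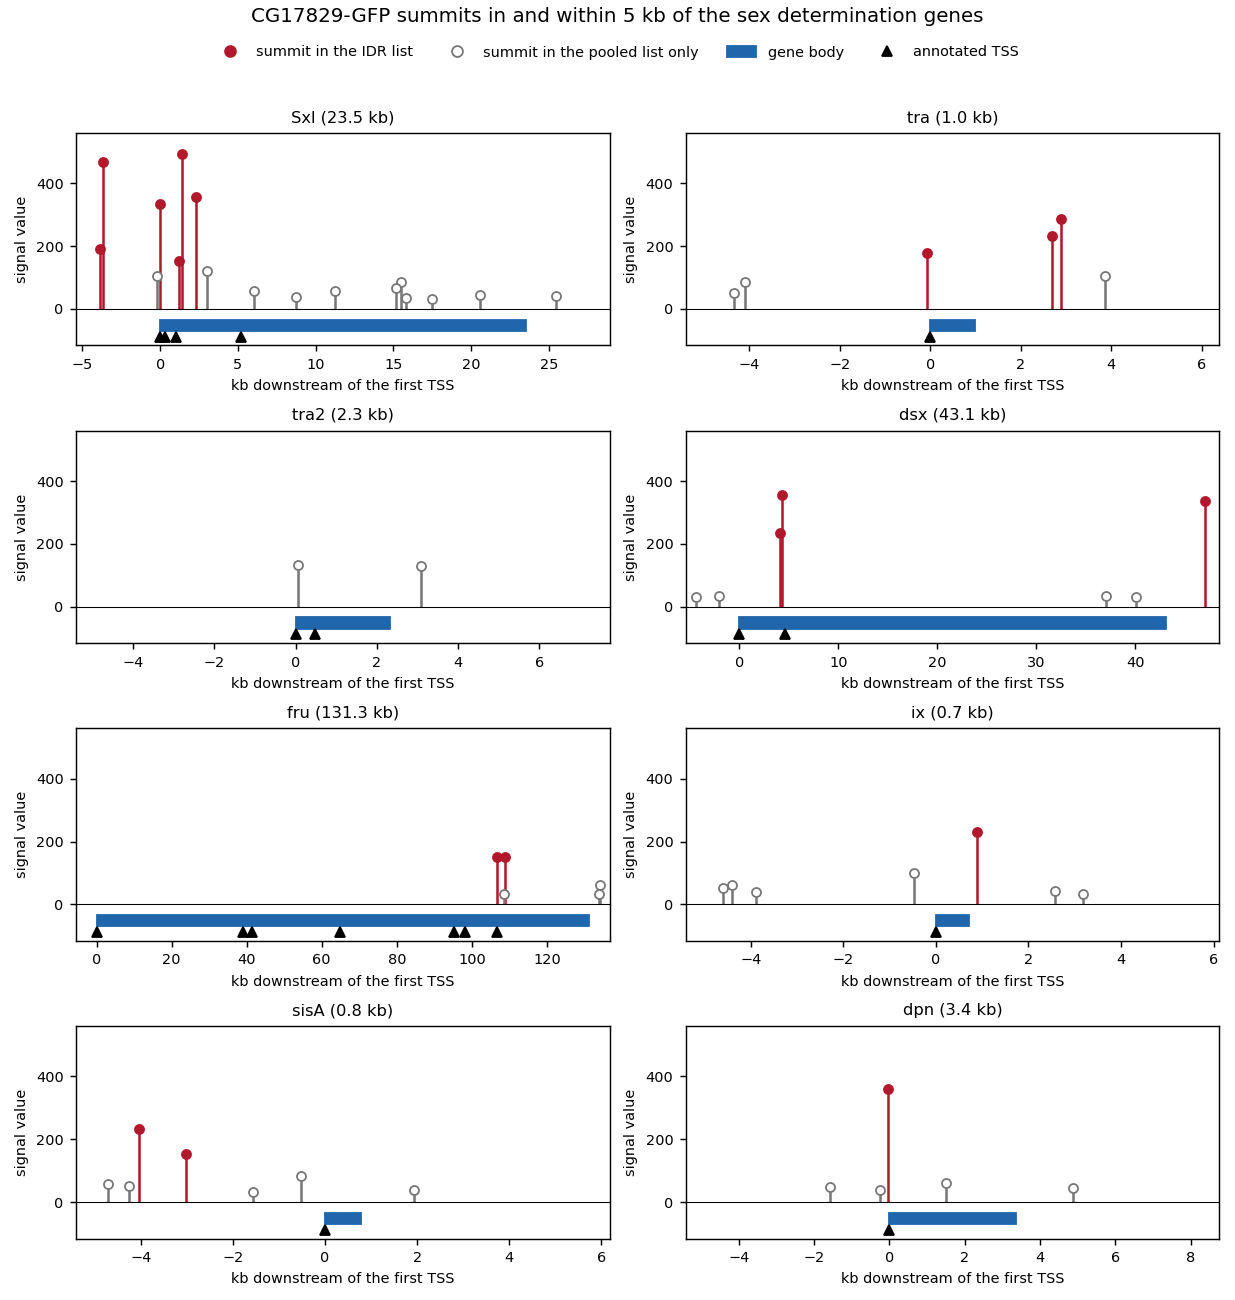
Each panel is 1 gene, with position in kb downstream of its first TSS on the x axis and the authors' signal value, for the IDR and pooled lists, on the y axis. Filled points are IDR summits, open points are summits of the pooled list only, blue bars are gene bodies and triangles are annotated TSSs. Sxl has the tallest summit of the set at 492.794, tra2 has no filled point, and the first 106.681 kb of fru hold no point.

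The X-linked signal gene sisA (FBgn0003411, chrX:11321579-11322357) had no IDR summit at its single TSS. It encodes a basic leucine zipper protein that activates Sxl in XX embryos. The nearest pooled summit lay 523 bp upstream of the TSS, at rank 12578 with signal 83.3, outside the IDR list. The nearest summit was 528 bp upstream in replicate 2 (rank 11524) and 433 bp upstream in replicate 4 (rank 16487), so neither lay within 250 bp of the start of sisA.

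Both IDR summits counted for sisA lay upstream of it, in or at the start of Gapvd1, whose human homologue acts in endocytosis. The stronger one, at X 11326397, had rank 4118 and signal 233.973 in the IDR list, rank 3963 in replicate 2 and rank 4652 in replicate 4. It lay inside Gapvd1, 1012 bp from its TSS. The other, at 11325366, had rank 6987 and signal 154.596 and was 19 bp from the Gapvd1 TSS, in a promoter shared with l(1)10Bb, a homologue of the yeast splicing factor Bud31. Its rank was 6107 in replicate 2 and 9125 in replicate 4, so it was within the 7915 strongest peaks of replicate 2 but not of replicate 4.

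At dpn (FBgn0010109, chr2R:8228971-8232330), which encodes a bHLH repressor of Sxl that is also used in neural stem cells, the picture was the opposite. Its 1 IDR summit sat at its own start, 45 bp upstream of the TSS at 8232375, with rank 2133 and signal 361.111. The matching peak ranked 1909 in replicate 2, with its summit at the same base, and 2673 in replicate 4, with its summit 72 bp upstream of the TSS. In the IDR list it was the strongest promoter summit of the 8 genes, while in replicate 4 that of Sxl ranked higher, at 2382. No other IDR summit lay within 5 kb of dpn.

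Sxl (FBgn0264270, chrX:7074550-7098053), which encodes the RNA-binding switch protein of the pathway, held the most summits of the set. It had 6 IDR summits within 5 kb, 3 of them in the gene body, and among other protein-coding genes 2.49% had as many or more within 5 kb. For the 3 in the gene body, 2.85% of other genes had as many or more. Length matters here: of the 862 genes at least as long as Sxl, the median had 1 IDR summit in the gene body. Of those 862 genes, 75 had 3, as Sxl had, and 185 (21.5%) had more. The IDR summits at Sxl lay between 3874 bp upstream and 2321 bp downstream of its first TSS, and the rest of the gene held pooled summits only.

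The maintenance promoter of Sxl, the start of 18 annotated transcripts at X 7098053, had a summit 20 bp upstream of the TSS, at 7098073. It had rank 2433 and signal 333.698 in the IDR list, rank 2403 in replicate 2 and rank 2382 in replicate 4. A weaker summit further upstream entered the 7915 strongest of replicate 4, at 7098266 with rank 6599, but not those of replicate 2, where it lay at 7098275 with rank 13052, or the IDR list.

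The establishment promoter, taken here as the TSS 5170 bp downstream of the first TSS, had no IDR summit. The annotation does not name this promoter, from which 4 transcripts start. Its TSS is at X 7092883, and the nearest IDR summit was 2849 bp upstream of it. The nearest pooled summit was 839 bp downstream of it at rank 17450. The nearest summits were 853 bp away in replicate 2 (rank 15532) and 921 bp away in replicate 4 (rank 20939). None of these pooled and replicate summits was among the 7915 strongest of its list.

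Between both promoters of Sxl lay 3 further IDR summits. The strongest IDR summit of the whole set, at 7096651 in an intron (peak chrX:7096507-7096832), had rank 1266 and signal 492.794, with rank 1258 in replicate 2 and 1324 in replicate 4. In replicate 4 the summit upstream of Sxl, at rank 1049, was stronger. The intronic summit was 415 bp downstream of the TSS at 7097066, from which 2 transcripts start. Its neighbour at 7096851, 200 bp away in a 5' UTR and 215 bp from the same TSS, was much weaker: rank 7068 in the IDR list, 7126 in replicate 2 and 22294 in replicate 4. The start at 7097066 counts as bound only through this weaker summit. The intronic summit at 7095732 had rank 2170 and signal 356.660 and repeated closely, with rank 2169 in replicate 2 and rank 2143 in replicate 4.

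Upstream of Sxl, the summit at 7101712 had rank 1402 and signal 466.823, with rank 1619 in replicate 2 and 1049 in replicate 4. It lay 3659 bp from Sxl, inside CG4615 and 588 bp from the TSS of that gene. A second summit of the same peak interval, at 7101927, had rank 5456 in the IDR list, 5645 in replicate 2 and 9986 in replicate 4. Which of both genes this place serves, if any, was not tested.

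**Figure D2:**
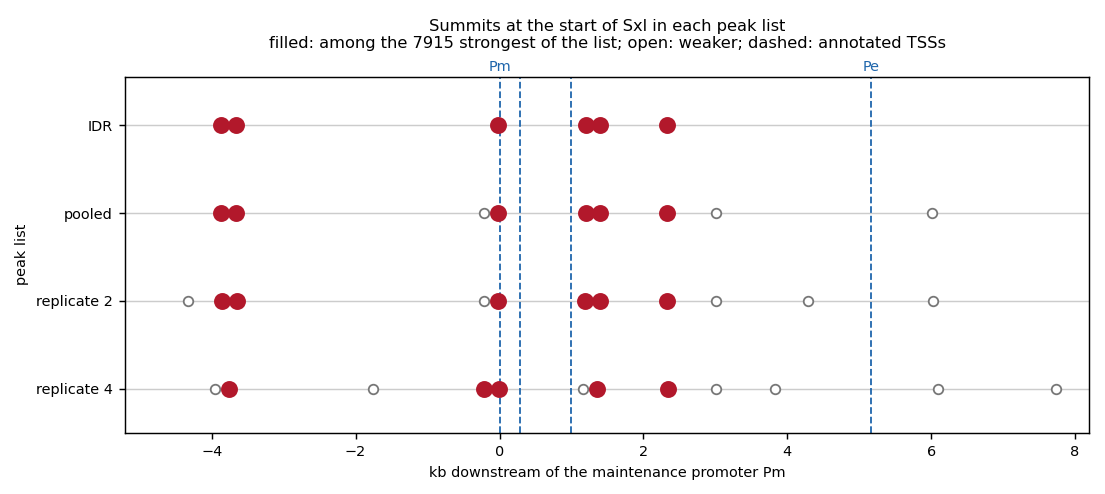
Summits at the start of Sxl in each of the 4 lists (rows), with kb downstream of the maintenance promoter (Pm) on the x axis. Filled points are among the 7915 strongest of their list, open points are weaker, and dashed lines are annotated TSSs. Every list has a filled point at Pm and none within 1 kb of the establishment promoter (Pe), where the nearest pooled summit has rank 17450.

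The tra promoter was bound weakly and unevenly. The gene tra (FBgn0003741, chr3L:16590059-16591050), the splicing regulator controlled by Sxl, had its IDR summit at 16591129, 79 bp upstream of the TSS, with rank 5857 and signal 179.577. The matching peak had rank 5072 and signal 111.942 in replicate 2, and rank 8224 and signal 63.9063 in replicate 4, where it fell outside the 7915 strongest. The same summit lay 78 bp from the end of spd-2, a centrosome gene, so the peak covers both. The stronger summits counted for tra, at 16588159 (rank 3046) and 16588360 (rank 4157), were at the other side of the gene. They lay 316 and 115 bp from the TSS of l(3)73Ah, which encodes a RING finger protein of the Polycomb PCGF type. In replicate 4 both matched the same peak, at rank 3280.

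Its partner tra2 (FBgn0003742, chr2R:14602004-14604337), an RNA-binding splicing factor present in both sexes, was the only one of the 8 genes with no IDR summit within 5 kb. A pooled summit sat at its start, 59 bp downstream of the TSS, at rank 8236 with signal 133.154, just past the end of the IDR list. Replicate 4 had the same summit at rank 7317, inside its 7915 strongest, and replicate 2 had one 109 bp downstream at rank 10234. In the 7915 strongest peaks of replicate 2, the genes with a promoter summit were Sxl, tra, fru and dpn, as in the IDR list. In those of replicate 4 they were Sxl, tra2, fru and dpn.

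The weakest members inside the IDR list were the Sxl summit of rank 7068 (signal 153.090) and the fru summits of ranks 7199 (150.498) and 7222 (150.061). Those just outside it were the pooled summits at tra2 with ranks 8236 (133.154) and 8456 (129.720), the second of them at the start of Blos1. The lowest signal in the IDR list was 137.939. The count of fru and the missing promoter count of tra2 thus rest on peaks close to the end of the list. Within 5 kb, tra2 also had a stronger peak near CG12868, at rank 3621 in replicate 2 and 2911 in replicate 4. That peak was in neither the pooled nor the IDR list.

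At ix (FBgn0001276, chr2R:11359437-11360163), which encodes a Mediator-related partner of female Dsx, the 1 IDR summit belonged to a neighbour. It lay at 11359284, past the 3' end of ix and 108 bp from the TSS of CG12384, with rank 4191 and signal 231.044. The matching peak had rank 4959 in replicate 2 and rank 3507 in replicate 4. On the side of the ix start, the pooled list had a summit 482 bp upstream of the TSS at rank 10847, and that summit was nearer to the next gene, san.

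The terminal regulator dsx (FBgn0000504, chr3R:7924323-7967408) encodes DM-domain transcription factors of sexual development. Its IDR summits in the gene were a pair in an intron, 320 and 520 bp upstream of an internal TSS at 7962786 from which 2 transcripts start. The stronger, at 7963106, had rank 2198 and signal 354.640, with rank 2522 in replicate 2 and 2211 in replicate 4. The weaker, at 7963306, had rank 4091 in the IDR list, 4142 in replicate 2 and 4157 in replicate 4. Both fall outside the 250 bp used for a promoter, so dsx was not counted there. The distal dsx TSS at 7967408, the start of 5 transcripts, had its nearest IDR summit 4102 bp downstream.

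The third IDR summit counted for dsx, at 7920415, was at the shared promoter of lds, the gene of the DNA-dependent ATPase Lodestar, and CG10445. It lay 16 bp from the lds TSS and had rank 2408 and signal 335.368, with rank 1892 in replicate 2 and 3577 in replicate 4. Of the 405 genes at least as long as dsx, the median had 2 IDR summits in the gene body, as dsx had.

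The other terminal regulator, fru (FBgn0004652, chr3R:18414273-18545586), encodes BTB zinc finger proteins that direct male courtship behaviour. Its 2 IDR summits were the weakest of the set and lay near the most proximal of its 7 TSSs. The summit at 18438905, 134 bp upstream of the TSS of fru-RM, had rank 7199 and signal 150.498, with rank 6014 in replicate 2 and 7798 in replicate 4. The summit at 18436814, in an intron 1957 bp downstream of that TSS, had rank 7222 in the IDR list, 7486 in replicate 2 and 8479 in replicate 4.

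The distal fru promoter, whose transcripts are spliced by Tra and Tra2, had no summit near it in any list. Its TSS at 18545586 starts 8 annotated transcripts, and the nearest IDR summit was 28369 bp upstream, outside the gene, at rank 372. The other fru starts apart from the proximal one were also over 8 kb from any IDR summit, 6 of 7 TSSs in all. Of the 41 genes at least as long as fru, the median had 1 IDR summit in the gene body, and 43.9% had more than the 2 of fru.

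Across the 8 genes there were 19 distinct TSSs, and 5 of them had a summit of the IDR list within 250 bp. They were a pair at Sxl and 1 each at tra, fru and dpn. The share over all 23581 TSSs was not computed, so 5 of 19 cannot be called high or low, and 7 of the 19 are starts of fru. In the whole pooled list, 5 of the 8 genes had a promoter summit, tra2 joining the 4, against 48.9% of all protein-coding genes. With a margin of 5 kb all 8 genes had a pooled summit, against 77.8%. The pooled list held 56 summits at the 8 genes, of which 21 were in gene bodies, or 0.102 per kb against 0.210 per kb in the other gene bodies. Singly, Sxl had 0.511 per kb, and tra2 had 0.428 and dpn 0.298 through 1 summit each. Values were lower at dsx (0.0928) and fru (0.0228), and tra, ix and sisA had no pooled summit in the body.

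All 18 IDR peaks overlapped a peak of replicate 2 and of replicate 4, as did 98.9% of the whole IDR list. That list was made from both replicates and equals the 7915 strongest pooled peaks, so the overlap is a description and no separate support. The summits were a median of 5 bp apart from the IDR summit in replicate 2 and 20 bp in replicate 4, and at most 37 and 177 bp. When only the 7915 strongest peaks of each replicate were used, 15 of the 18 overlapped a peak in both, against 83.4% of the IDR list. This counts any overlapping peak, not the one with the nearest summit. Ranks repeated closely at the maintenance promoter of Sxl (2403 in replicate 2 and 2382 in replicate 4) and at the weaker dsx summit (4142 and 4157). They were furthest apart at the Sxl summit of the 5' UTR (7126 and 22294).

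**Figure D3:**
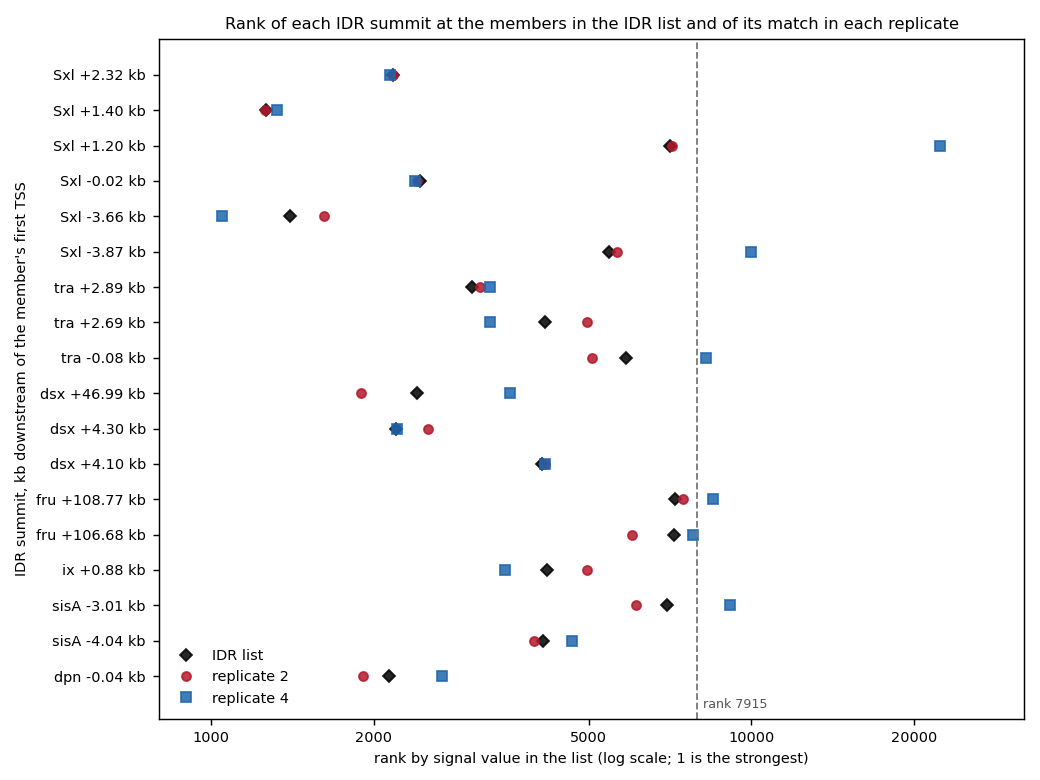
Each row is 1 of the 18 IDR summits, named by gene and by kb downstream of the gene's first TSS, and the x axis is the rank by signal value on a log scale, with rank 1 the strongest. Diamonds are the IDR list, circles the matching peak of replicate 2 and squares that of replicate 4, and the dashed line is rank 7915. Squares lie right of the line at the Sxl summit of the 5' UTR (rank 22294), the weaker summit of the pair upstream of Sxl, the tra promoter, a fru intron and the Gapvd1 start near sisA.

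Motifs were counted on both strands within 50 bp of each summit. The core of the human HINFP site, GTCCGC or GCGGAC, was found at 1 of the 18 summits, the one inside Gapvd1 upstream of sisA, against 1.39% of all 7915 IDR windows and 2.92% of windows taken 500 bp to either side of the summits. The DRE, TATCGATA, a palindrome common in housekeeping promoters, was found at 2 of 18, against 3.41% of all IDR windows and 0.272% of flanking windows. Both matches were at promoters of neighbours: that of Gapvd1, printed above, and that of lds and CG10445. The short site printed for lds and CG10445 runs past the lds TSS at 7920431 into the annotated transcript.
lds and CG10445 promoter, chr3R:7920418-7920445: tgccacaaacTATCGATAttttagaaag

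The core promoter motif 1, GGTCACAC or GTGTGACC, was also found at 2 of 18, against 2.87% of all IDR windows and 0.202% of flanking windows. Its matches were at the tra promoter and at the stronger summit near l(3)73Ah, and within 100 bp the maintenance promoter of Sxl joined them. Within 100 bp the DRE was found at 3 of 18, the other summit near l(3)73Ah being added.
l(3)73Ah side of tra, chr3L:16588151-16588178: atttcagggtGGTCACACaatgcaaggt

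The site of Zelda, CAGGTA or TACCTG, a factor that opens chromatin of the early embryo, was found at 1 of 18, at dpn, against 2.10% of all IDR windows and 2.51% of flanking windows, and within 100 bp the strongest Sxl summit joined it. The GAGA motif, GAGAG or CTCTC, was found at 2 of 18, at tra and dpn, against 10.5% of all IDR windows and 13.8% of flanking windows. The E-box CACGTG, a site of bHLH proteins, was found at 0 of 18, against 0.884% of all IDR windows and 1.26% of flanking windows. The windows of the 18 summits had a median GC content of 37.6% (24.8 to 58.4%), and all IDR windows had 32.7% (quartiles 26.7 to 42.6%). With so few matches no motif can be said to be more or less frequent at the 18 summits, and a match describes letters, not a site in use.

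Genes of the wider pathway were listed by role, and 17 of 33 (51.5%) had an IDR promoter summit, against the 31.7% of all protein-coding genes. The list was chosen with earlier results of these data known, and some of its splicing factors were already known to be bound. All 3 modulators of the X signal had one: gro, the corepressor used by Deadpan, at rank 552 (signal 780.080), emc, an inhibitor of bHLH proteins, at rank 2059, and her, a zinc finger gene, at rank 5927. Of the 5 signal genes and early activators of Sxl, 2 had one. They were da, the bHLH partner of the Scute activator, at rank 1899 (signal 385.562), and zld, on the X chromosome, at rank 4016. The other genes of this role list, sc, run and upd1, are X-linked as zld is, and were named after their values were seen. They had pooled promoter summits at ranks 20847, 9050 and 10508, all outside the IDR list, and sc had none in replicate 2. The X-linked sisA had no promoter summit in the pooled list either.

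Genes that help Sxl to splice its own transcripts, including the N6-methyladenosine (m6A) writers, had a promoter summit in 7 of 8. The strongest was fl(2)d at rank 1228 (signal 501.792, shared with CG13339), followed by Mettl14, a subunit of the methyltransferase, at rank 4645 (shared with Ostgamma), Ythdc1, the m6A reader, at rank 4667 (shared with CG12010), and nito at rank 4914. Among the splicing partners, U2af50, the large subunit of U2AF, had one at rank 384 (shared with PIG-Q). In a shared promoter the gene to which the binding belongs cannot be told apart.

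Genes that act below Sxl, dsx or fru, or with them, had a promoter summit in 2 of 9: lola, a BTB zinc finger gene, at rank 2910, and bab2, a pigmentation gene controlled by Dsx, at rank 3641. Among the 7 without was msl-2, the dosage compensation gene that Sxl represses, named after its value was seen, with a pooled summit at rank 8247. Of the 5 germline sex genes, 1 had a promoter summit, Phf7, which promotes male germline identity, at rank 5552 (signal 188.160). The counts per role are small, and no difference between roles was tested.

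**Figure D4:**
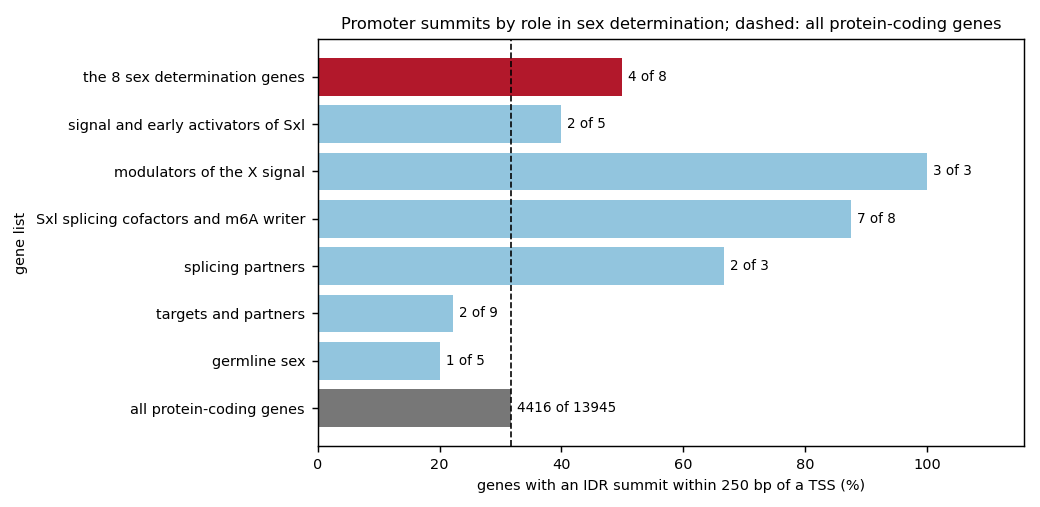
Share of genes with a promoter summit in the IDR list, in percent on the x axis, for the 8 sex determination genes, for 6 role lists of the wider pathway and for all protein-coding genes. Numbers beside the bars are counts of genes, and the dashed line is the 31.7% of all protein-coding genes. The lists of modulators (3 of 3) and of Sxl splicing cofactors (7 of 8) have the longest bars, and those of targets (2 of 9) and germline sex genes (1 of 5) the shortest.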

How the data were processed

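ChIP-seq of CG17829-GFP was done on 2 biological replicates, numbered 2 and 4, of mixed-sex embryos aged 0 to 24 hours, per the labels. A size range of 200 to 800 is labelled with no unit. The authors deposited 4 peak lists in dm6: 1 per replicate and 1 pooled, each made from alignments and 1 control, and 1 IDR list derived from these, per the deposited notes. Neither aligner nor peak caller is named in the sources used here, and the read depth is unknown. The signal of each peak is the authors' deposited value on an undefined scale and served to rank peaks inside each list. The −log10 q-values that the authors deposited were not used. The other deposited columns used are peak positions and summit offsets in bp.

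Summits were placed on the Ensembl 115 annotation of the dm6 assembly (18164 genes and 23581 TSSs without transposons), and sequence was read from RefSeq. Positions count from 1. All arms were used, and 0 deposited columns were left unmapped to a sample. With 1 group there was no comparison between samples, so values are described, beside the same value over 13945 protein-coding genes or 7915 IDR peaks, and no p-value is given. The genes, lists and motifs were chosen with earlier results of these data known. Genes named are the 8 genes, any gene whose TSS was nearest within 250 bp of a counted summit, and up to 4 bound genes of each role list, of which 1 gene is not reported here. Further genes (spd-2, CG4615, san, Blos1, CG12868, CG31122, partners in shared promoters, and genes without a summit) were named after their values were seen, and the comparisons with genes of like length and the summit-free stretch of fru were added then. The symbol vfl was matched to zld through RefSeq synonyms, and all 33 genes of the wider list were found. The counting was tested on simulated peaks. Python 3.11.15, numpy 2.4.6, pandas 2.3.3, scipy 1.17.1 and matplotlib 3.10.9 were used. Alternatives tried were other distances, flanks, lists, motif windows, placement by interval and each replicate alone.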

Additional observations from a re-analysis of the deposited data

How the results depend on the processing

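The number of genes with a promoter summit (4 of 8) was 3 at a TSS distance of 100 bp, 6 at 1000 bp, 5 in the pooled list and 5 when any overlap of the peak interval counted. In the strongest 50% of the IDR list it was 2, the genes with a summit of any kind within 5 kb fell to 4 of 8, the summits within 5 kb to 8 and those in gene bodies to 3. The sum of 18 summits became 11 with a flank of 1 kb, 28 with 10 kb and 7 with the gene body only, where 3 genes had a summit, and 56 in the pooled list, with 21 in gene bodies. Each replicate alone, taken to 7915 peaks, gave 4 genes with a promoter summit, though with tra2 in place of tra in replicate 4. It gave 8 genes and 16 to 20 summits within 5 kb, 6 to 7 summits in gene bodies, and 55 to 62.5% of summits at a TSS. Shares over all protein-coding genes were computed only for the IDR and pooled lists at the main distances. For promoter summits they were 31.7% and 48.9%. Gene counts under the other settings have no such share beside them, so no excess over all genes can be read from them. At 1000 bp the added genes were dsx and ix, ix only through the summit past its 3' end, 108 bp from the TSS of CG12384. Centred on the summits of replicate 2, the HINFP core was found at 0 and the DRE at 1. On those of replicate 4, motif 1 was found at 1, GAGA at 1 and Zelda at 2, as was Zelda within 100 bp. Of 53 main values under an alternative, 37 stayed within 1.5 times and 16 did not, and the cause was not tested. No paired analysis was possible because there was 1 group. The unknown read depth limits what the absence of a peak can show, above all at tra2 and the weaker fru and Sxl summits. The mix of sexes, tissues and stages limits it as well. This holds for the distal fru promoter, the Sxl establishment promoter and the start of sisA too.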

Other observations

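A strong peak upstream of tra2 was present in both replicate lists and in neither combined list. In replicate 2 its summit was at 2R 14605487, with rank 3621 and signal 143.132, and in replicate 4 it was at 14605521, with rank 2911 and signal 137.894. It lay 1150 bp (replicate 2) and 1184 bp (replicate 4) outside tra2 and was nearest to the TSS of CG12868, at 190 and 224 bp. No peak of the pooled or the IDR list overlapped it. Such peaks, among the 7915 strongest of a replicate and overlapping the other replicate but no pooled peak, numbered 16 (0.202%) in replicate 2 and 12 (0.152%) in replicate 4.

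Past the 3' end of fru, replicate 4 had a peak at 3R 18413073 with rank 2646 and signal 146.065, 1200 bp outside the gene and 199 bp from the TSS of CG31122. No peak of replicate 2 or of the pooled list overlapped it. Among the 7915 strongest peaks, 72 (0.910%) of replicate 2 and 78 (0.985%) of replicate 4 overlapped no pooled peak.

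Most of fru was empty of summits in every list. In the pooled list no summit lay between 18438905 and 18573955, a stretch of 135.05 kb of which 106.681 kb, or 81.2% of the gene, is fru. It was the 74th longest such gap of 29994, where the median gap was 1.314 kb, and the gap at the same place ranked 108 of 7909 in the IDR list, 72 in replicate 2 and 67 in replicate 4. The stretch holds 0 undetermined bases, and its GC content is 40.1%, against 42.6% on arm 3R.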
